A study of Mus musculus with 6 samples.

Results

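The extended list of interferon-stimulated genes held 44 named genes, of which 40 were measured among 19938 genes. A member was counted as measured when a probe set of the array annotation carried its symbol and no other, and for a gene with several such probe sets the brightest over all arrays was taken. The other 4 (Irgm2, Igtp, Ifi47 and Ifi204) stood only on probe sets that also carry other genes and were not analysed here. The RNA came from the back skin of male mice of the inbred strain BALB/c, which were 5 to 6 weeks old, and was measured as total RNA on a mouse gene array. There were 3 groups of 2 arrays: intact skin, wounds on day 1 and wounds on day 4. Each wounded mouse had a pair of 4 mm punch wounds through the whole skin down to the fascia, and an 8 mm punch took the wound with surrounding skin, or intact skin. The labels name no genetic alteration and no agent other than the anaesthetic and the ethanol used to disinfect the shaved back before wounding. The replicates are termed biological, but nothing states how many mice or wounds contributed to each array, so the p-values measure the spread between these samples, which may be partly technical.

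Interferons are secreted proteins that warn cells of infection and tissue damage. Type I and type III interferons act through receptors and the kinases Jak1 and Tyk2 to form a complex that holds Stat2 and Irf9 and binds the interferon-stimulated response element (ISRE) of target genes. Interferon gamma acts through Jak1 and Jak2, and its signal reaches target genes at the gamma-activated site (GAS). The products of the target genes block viral replication, sense foreign nucleic acids, load peptides onto MHC class I and feed back on the pathway itself. In skin, keratinocytes, fibroblasts and infiltrating leukocytes can all respond, and whole-skin RNA does not separate them. In such bulk samples more cells of a type and more RNA per cell cannot be told apart.

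The response elements are shown first, and they were read from sequence and not from the arrays. The list names targets of interferon, so a high share of ISRE matches is not independent of its choice. RefSeq promoter windows (mouse build GRCm38.p6, from 250 bases before to 50 bases after a start) were found for 30 of the 40 members. The ISRE was searched on both strands as GAAA, any 2 bases and GAAA again, which reads from the other side as TTTC, any 2 bases and TTTC. At least 1 match was present for 15 of the 30 members (50%), against 3.89% of the 15614 measured genes with a window. The GAS was searched as TTCNNNGAA, which reads the same on both strands, and was present for 9 of the 30 members (30%) against 8.99% of measured genes. In 2 members, Ifitm3 and Bst2, a match to each motif overlapped. By class the ISRE letters were found for 8 of 13 antiviral effectors, 2 of 2 GTPases, 3 of 3 nucleic acid sensors, 1 of 5 transcription factors, 1 of 6 regulators and 0 of 1 peptide transporters. A match describes letters in this window and is not a measured binding site.

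The stretches below hold the matches of the strongest responders (Rsad2, Ifit1, Ifit3 and Ifi214) and of Oas1a, Irgm1 and Gbp3, which have 2 ISRE matches each. They also hold those of the weakest antiviral effector (Bst2) and of the pathway's own transducer Stat2. The last stretches are of Irf1 and Irf8, in which GAS letters but no ISRE letters were found. Each stretch is written 5′ to 3′ on the gene's strand and ends before the start of transcription, with the matched letters in capitals.
Rsad2 (ISRE, chr12:26456543-26456592, minus strand): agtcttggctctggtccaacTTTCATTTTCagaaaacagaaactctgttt
Ifit1 (ISRE, chr19:34640765-34640833, plus strand): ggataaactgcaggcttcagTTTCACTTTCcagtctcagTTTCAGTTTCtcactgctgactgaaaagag
Ifit3 (ISRE, chr19:34583353-34583436, plus strand): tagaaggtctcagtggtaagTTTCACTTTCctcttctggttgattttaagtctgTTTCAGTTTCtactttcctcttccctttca
Oas1a (ISRE, chr5:120907526-120907565, minus strand): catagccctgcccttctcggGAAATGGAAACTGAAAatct
Irgm1 (ISRE, chr11:48871421-48871470, minus strand): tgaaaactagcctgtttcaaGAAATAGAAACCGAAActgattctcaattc
Gbp3 (ISRE, chr3:142559979-142560034, plus strand): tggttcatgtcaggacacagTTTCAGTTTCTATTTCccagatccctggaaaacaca
Bst2 (ISRE, chr8:71537567-71537622, minus strand): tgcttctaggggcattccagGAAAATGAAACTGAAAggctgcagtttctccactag
Ifi214 (ISRE, chr1:173536007-173536056, minus strand): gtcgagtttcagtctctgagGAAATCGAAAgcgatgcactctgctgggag
Stat2 (ISRE, chr10:128270256-128270305, plus strand): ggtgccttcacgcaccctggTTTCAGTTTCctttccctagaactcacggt
Irf1 (GAS, chr11:53769904-53769952, plus strand): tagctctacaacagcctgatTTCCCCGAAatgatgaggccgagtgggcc
Irf8 (GAS, chr8:120736167-120736233, plus strand): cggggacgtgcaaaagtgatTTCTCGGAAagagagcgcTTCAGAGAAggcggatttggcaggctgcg
In Oas1a, Bst2, Irgm1 and Gbp3 the 2 ISRE matches share letters and form 1 run, whereas in Ifit1 and Ifit3 they lie apart.

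All 40 measured members rose in day 1 wounds, and 39 of the 40 rose in day 4 wounds. The test was limma on the deposited log2 intensities, with Benjamini-Hochberg adjustment across the 19938 genes and a threshold of 0.05. Of all genes 14.7% were higher in day 1 wounds and 14.8% in day 4 wounds than in intact skin, and 14.6% and 12.1% were lower. The members were chosen with earlier results of these data known, so their share is not independent of that choice. No member was lower than in intact skin on either day, also at an unadjusted limma p under 0.05. The members' median log2 change was 2.47 on day 1 and 1.75 on day 4, against −0.04 and −0.03 over all genes tested. On day 1 38 members, and on day 4 35 members, differed at least 2-fold, against 1501 and 1179 of all 19938 genes. Among all genes ordered by their day 1 rise, 7 members stood in the top 100 and 33 in the top 500. For each of the 40 members both day 1 arrays and both day 4 arrays lay above both intact arrays, which held for 29.0% and 30% of all genes. The mean log2 level over the members was 7.37 and 7.38 on the intact arrays, 9.86 and 9.67 on the day 1 arrays, and 9.19 on each day 4 array.

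**Figure D1:**
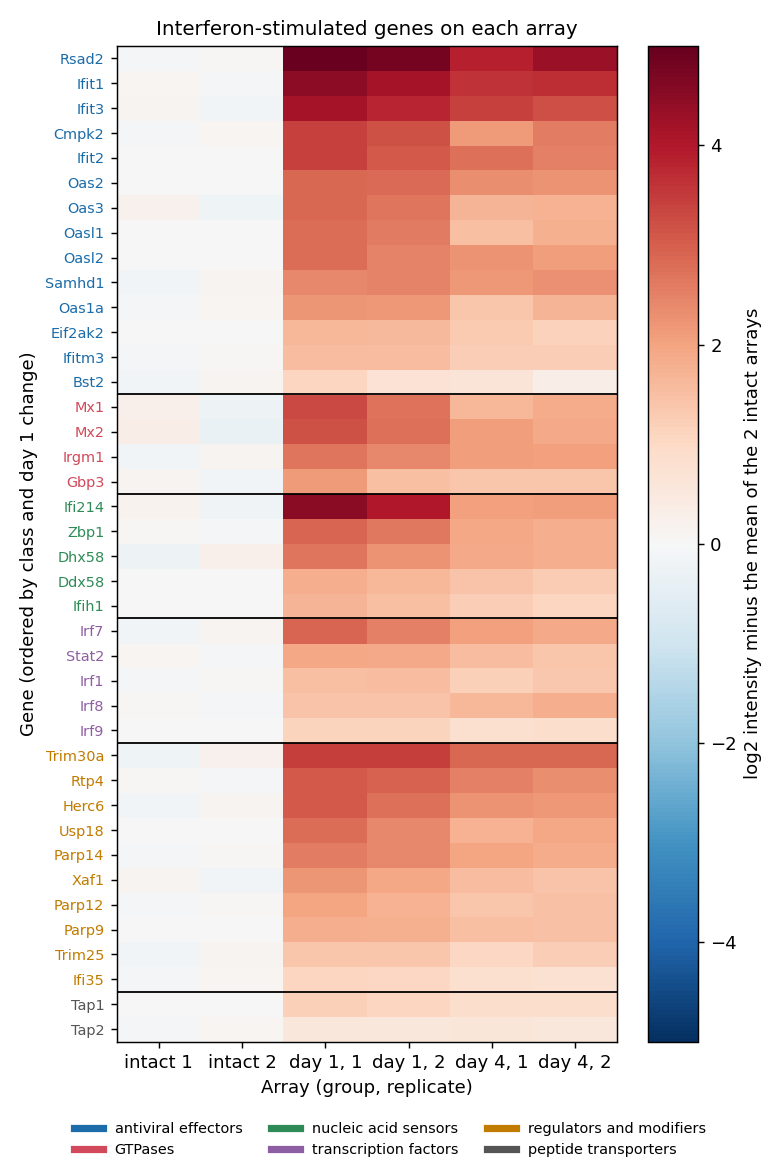
Heat map of the 40 members (rows, grouped by class and ordered by day 1 change) on the 6 arrays (columns), with colour giving the log2 intensity minus the mean of the 2 intact arrays. Every row is red on the 4 wound arrays, and most rows are paler on day 4 than on day 1.

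The antiviral effectors, whose products act on viral RNA, translation or budding, held 14 measured members. All 14 rose on day 1 (median log2 change 2.74, from 0.88 to 4.86), and 13 rose on day 4 (median 2.21). Rsad2, which encodes viperin, an enzyme that makes a chain-terminating nucleotide, had log2 intensities of 6.19 and 6.29 in intact skin, 11.17 and 11.04 on day 1, and 10.13 and 10.56 on day 4. Its day 1 level was 29.1-fold that of intact skin (log2 change 4.86, SE 0.15, adjusted p = 2.55e-05) and its day 4 level 17.2-fold (log2 change 4.10, adjusted p = 6.77e-05). It had the largest rise of the list on both days and stood in place 17 of all genes on day 1. Cmpk2, a nucleotide kinase and the next coding gene to Rsad2, lay at 6.02 and 6.18 in intact skin, 9.51 and 9.29 on day 1, and 8.22 and 8.65 on day 4. It was 9.85-fold and 5.05-fold higher than in intact skin on the 2 days (adjusted p = 7.42e-05 and 3.53e-04).

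The IFIT proteins bind viral RNA ends, and their genes lie close together on chromosome 19. Ifit1 was measured at 6.30 and 6.11 in intact skin, 10.69 and 10.38 on day 1, and 9.81 and 9.90 on day 4. Its rise was 20.1-fold on day 1 and 12.6-fold on day 4 (adjusted p = 2.34e-05 and 6.37e-05). Ifit3 stood at 6.84 and 6.59 in intact skin, 10.86 and 10.52 on day 1, and 10.14 and 9.92 on day 4, which is 15.7-fold and 9.95-fold. Ifit2 rose 9.45-fold and 6.25-fold. The log2 changes of Ifit1, Ifit3 and Ifit2 were 4.33, 3.97 and 3.24 on day 1 (SEs 0.12, 0.15 and 0.13), and the differences between these genes were not tested. Whether probe sets of near-identical copies such as Ifit3b share signal was not tested.

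The oligoadenylate synthetases make the second messenger that activates RNase L, and the related Oasl proteins act on nucleic acid sensing. Oas2 had the smallest adjusted p of the list, at 7.64 and 7.62 in intact skin, 10.51 and 10.48 on day 1, and 9.94 and 9.89 on day 4 (7.29-fold and 4.87-fold, adjusted p = 1.58e-05 and 4.64e-05). Oas3, its neighbour on chromosome 5, went from 6.75 and 6.29 to 9.41 and 9.19 on day 1 and lay at 8.20 and 8.27 on day 4. Oasl1 stood at 7.06 and 7.13 in intact skin, 9.88 and 9.71 on day 1, and 8.61 and 8.88 on day 4. The 3 genes had like rises on day 1 (log2 changes of 2.86, 2.78 and 2.70), while on day 4 the changes were 2.28, 1.71 and 1.65. Oasl2, adjacent to Oasl1, changed by 2.64 and 2.18, and Oas1a by 2.18 and 1.55.

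The remaining 4 effectors had day 1 changes from 0.88 to 2.45. Samhd1, which degrades deoxynucleotides, rose 5.45-fold and 4.72-fold, and the translation-blocking kinase Eif2ak2 (PKR) rose 3.12-fold and 2.36-fold. Ifitm3, a membrane protein that hinders viral entry, was bright before injury, at 11.09 and 11.20, and reached 12.68 and 12.70 on day 1 and 12.37 and 12.39 on day 4. Bst2 (tetherin), which holds budding virus at the cell surface, is described because it was the single member that did not pass on day 4, a choice made after its values were seen, as was that of Ifitm3. Bst2 had values of 7.81 and 8.11 in intact skin, 9.02 and 8.67 on day 1, and 8.59 and 8.29 on day 4. The day 1 change of 0.88 passed (SE 0.17, adjusted p = 0.00967) and that of day 4, 0.48, did not (SE 0.17, adjusted p = 0.0815). The day 1 call of Bst2 was lost without intact skin replicate 1 (adjusted p = 0.0702) and without day 1 wound replicate 1 (adjusted p = 0.0504).

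The GTPases had 4 measured members, all higher on both days, with median log2 changes of 2.76 and 1.87. Mx1 and Mx2 are dynamin-like GTPases against viruses, and BALB/c mice, like most laboratory strains, carry an Mx1 allele without antiviral function. Mx1 was measured at 5.14 and 4.60 in intact skin, 8.18 and 7.57 on day 1, and 6.53 and 6.72 on day 4. Mx2 gave 5.12 and 4.48, then 8.00 and 7.55, then 6.90 and 6.68. Their rises were 8.03-fold and 7.86-fold on day 1 and 3.38-fold and 3.97-fold on day 4 (adjusted p between 4.06e-04 and 0.0037). Both lay under the arrays' lower quartile (5.29 to 5.37) in intact skin, a range in which no test of signal over background was made, and their folds are approximate.

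Irgm1 controls the immunity-related GTPases that act on vacuoles of intracellular pathogens, and Gbp3 belongs to the guanylate-binding proteins. Irgm1 stood at 7.12 and 7.41 in intact skin, 9.94 and 9.67 on day 1, and 9.37 and 9.33 on day 4, a rise of 5.82-fold and 4.24-fold (adjusted p = 9.32e-05 and 2.93e-04). Gbp3 gave 6.87 and 6.61, then 8.87 and 8.26, then 8.14 and 8.12 (3.54-fold and 2.62-fold, adjusted p = 0.00117 and 0.00404). The day 1 arrays of Gbp3 differed by more than its day 1 and day 4 group means did.

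All 5 measured nucleic acid sensors rose on both days, with medians of 2.47 and 1.85. Ifi214, a member of the interferon-inducible Ifi200 family of DNA-binding proteins, had 5.09 and 4.76 in intact skin, 9.44 and 8.91 on day 1, and 6.98 and 7.02 on day 4. It was 19-fold higher on day 1 (log2 change 4.25, SE 0.19, adjusted p = 6.01e-05) and 4.21-fold on day 4 (adjusted p = 9.18e-04). Its intact values also lay under the lower quartile, so these folds are approximate. Zbp1, a sensor of Z-form nucleic acids that can start necroptosis, went from 7.25 and 7.13 to 10.10 and 9.84 on day 1, with 9.14 and 9.02 on day 4 (6.87-fold and 3.71-fold).

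The RIG-I-like receptors sense viral RNA in the cytosol and signal through Mavs, apart from Dhx58 (LGP2), which lacks the signalling domain and tunes the others. Dhx58 had 5.95 and 6.48 in intact skin, 8.89 and 8.48 on day 1, and 8.11 and 8.03 on day 4, 5.54-fold and 3.62-fold higher (adjusted p = 4.29e-04 and 0.00161). Ddx58 (RIG-I) had 8.46 and 8.44, then 10.25 and 10.12, then 9.87 and 9.71, which is 3.33-fold and 2.53-fold. Ifih1 (MDA5) rose 3.03-fold and 2.21-fold, the smallest change among the sensors on both days.

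The 5 transcription factors rose on both days, with a median of 1.53 on day 1 and 1.46 on day 4. Irf7, the factor that amplifies type I interferon genes, gave 7.93 and 8.24 in intact skin, 10.98 and 10.62 on day 1, and 10.15 and 9.96 on day 4. It was 6.57-fold and 3.92-fold higher (adjusted p = 1.41e-04 and 6.31e-04), the largest rise of the class. Stat2, a subunit of the complex that binds the ISRE, had 8.21 and 8.04, then 10.06 and 10.00, then 9.67 and 9.51, which is 3.75-fold and 2.76-fold. Its partner Irf9 rose 2.17-fold and 1.79-fold.

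Irf1 and Irf8 are induced by interferon gamma, and Irf8 is also a lineage factor of monocytes and dendritic cells. Irf1 stood at 7.55 and 7.64 in intact skin, 9.10 and 9.15 on day 1, and 8.80 and 8.96 on day 4, 2.89-fold and 2.44-fold higher (adjusted p = 1.24e-04 and 3.51e-04). It was the one member with a second probe set of its own, and that dimmer one disagreed. Its values were 6.43 and 6.38 in intact skin, 6.51 and 6.27 on day 1, and 6.37 and 6.33 on day 4, with a log2 change of −0.01 on day 1 (limma adjusted p = 0.924 over 21789 probe sets). Irf8 had 7.31 and 7.20 in intact skin, 8.67 and 8.70 on day 1, and 8.93 and 9.09 on day 4. Its rise was 2.69-fold on day 1 and 3.38-fold on day 4 (adjusted p = 1.67e-04 and 1.63e-04), and both day 4 arrays lay above both day 1 arrays.

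The 10 regulators and modifiers act on ubiquitin, the ubiquitin-like protein ISG15, ADP-ribose and receptor signalling. All 10 rose on day 1 (median 2.27) and on day 4 (median 1.66). Trim30a, a ring-finger protein that restrains signalling from Toll-like receptors, had 7.28 and 7.72 in intact skin, 10.97 and 10.96 on day 1, and 10.39 and 10.36 on day 4 (11-fold and 7.34-fold, adjusted p = 4.95e-05 and 1.57e-04). Rtp4, a chaperone of receptors in the Golgi, had 7.61 and 7.46, then 10.62 and 10.50, then 10.05 and 9.85 (8.14-fold and 5.33-fold). Herc6, the mouse ligase that attaches ISG15, had 6.76 and 7.01, then 9.96 and 9.65, then 9.15 and 9.06 (7.57-fold and 4.66-fold). Usp18, which removes ISG15 and blocks the type I receptor, stood at 8.02 and 8.07 in intact skin, 10.83 and 10.46 on day 1, and 9.77 and 9.97 on day 4 (6.06-fold and 3.54-fold). The RNAs for these enzymes, which attach and remove ISG15, were both higher in the wound biopsies, and protein was not measured. Isg15 itself stood only on a probe set that also carries other genes and was not analysed.

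The other 6 regulators rose between 2.08-fold (Ifi35) and 5.54-fold (Parp14) on day 1. Parp14 and Parp9, ADP-ribosyltransferases that are separated by 1 coding gene on chromosome 16, had log2 changes of 2.47 and 1.80 on day 1 and 1.91 and 1.48 on day 4. Parp14 itself lay at 7.41 and 7.56 in intact skin, 10.04 and 9.87 on day 1, and 9.45 and 9.35 on day 4, with no overlap between the groups. Parp12 was 3.61-fold and 2.69-fold higher. Xaf1, which opposes an inhibitor of apoptosis, was 4.23-fold and 2.81-fold higher, and Trim25, the ligase that activates RIG-I, was 2.62-fold and 2.19-fold higher.

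Tap1 and Tap2 form the transporter that carries peptides to MHC class I, and they had the smallest class median. Tap1 gave 8.86 and 8.89 in intact skin, 10.05 and 9.94 on day 1, and 9.76 and 9.77 on day 4, a change of 2.17-fold and 1.85-fold (adjusted p = 2.25e-04 and 7.14e-04). Tap2 gave 8.04 and 8.27, then 8.74 and 8.71, then 8.77 and 8.71 (1.48-fold and 1.5-fold, adjusted p = 0.006 and 0.00676). Tap2 had the smallest day 1 rise of the 40 members, and its 4 wound arrays lay between 8.71 and 8.77.

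**Figure D2:**
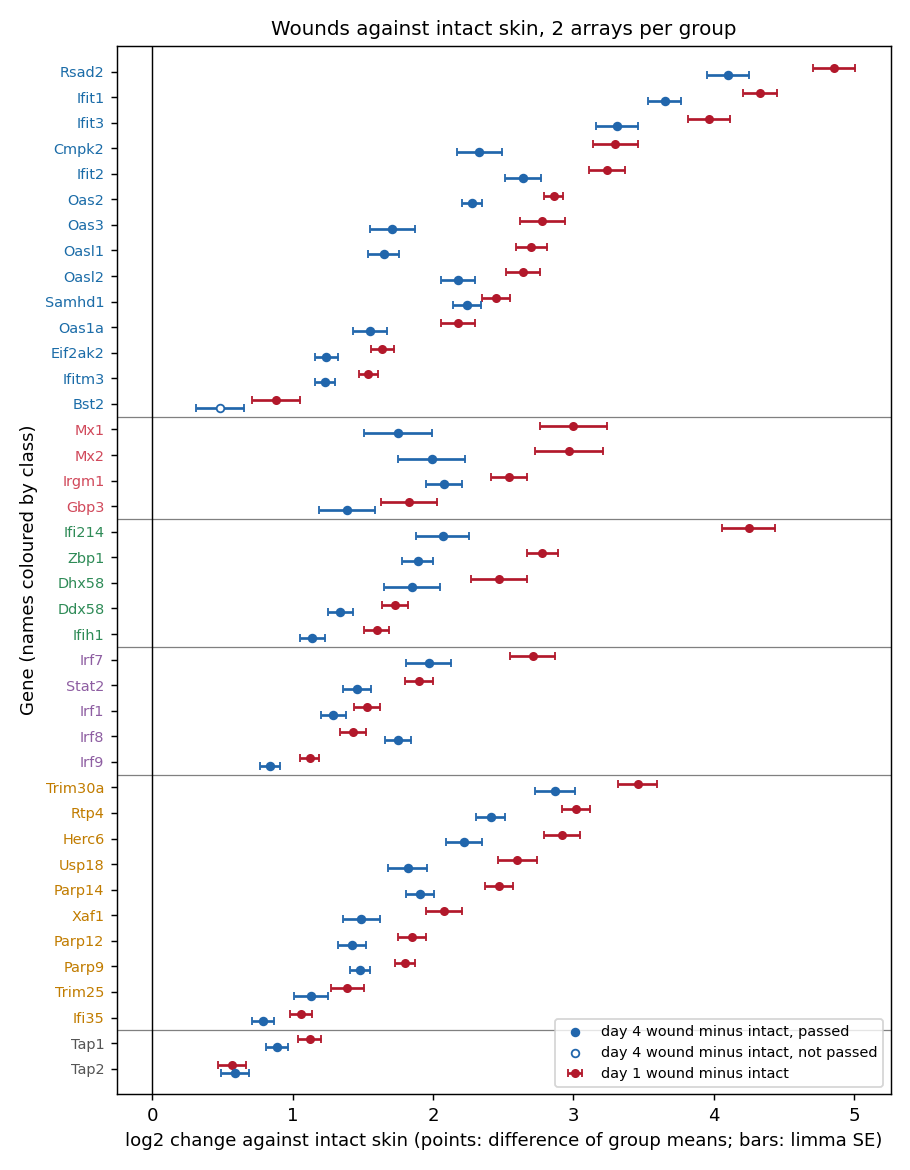
Log2 change against intact skin for each member on day 1 (red) and day 4 (blue), with limma SEs as bars and names coloured by class. All changes lie above 0, and the day 1 point lies to the right of the day 4 point except for Irf8 and Tap2.

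The comparison of the 2 wound days uses the intact arrays only in the estimate of the spread. Between day 1 and day 4 a fall was called for 9 of the 40 members and a rise for 0, against 1.14% of all genes that fell and 1.09% that rose. At an unadjusted limma p under 0.05, 35 members were lower and 1 was higher on day 4, against 1749 and 2016 of all 19938 genes. The members' median change was −0.57, against 0.01 over all genes. For 38 of the 40 both day 1 arrays lay above both day 4 arrays, which held for 22.0% of all genes. The exceptions were Irf8, at 0.33 (SE 0.09, adjusted p = 0.119), and Tap2, at 0.02 (SE 0.10, adjusted p = 0.957). Ifi214 fell most, by 2.18 (SE 0.19, adjusted p = 0.0125), from 9.44 and 8.91 to 6.98 and 7.02. The effectors Oas3 and Oasl1 fell by 1.06 and 1.05 (adjusted p = 0.0361 and 0.0197), Cmpk2 by 0.96 (0.0427) and Oas2 by 0.58 (0.0232). The sensor Zbp1 fell by 0.89 (0.0259), and of the regulators Usp18 fell by 0.78 (0.0488), Rtp4 by 0.61 (0.0446) and Parp14 by 0.55 (0.0481). The calls of Usp18, Rtp4 and Parp14 were lost with quantile normalization (adjusted p = 0.0601, 0.0591 and 0.0535), and that of Rtp4 also with cyclic loess (0.0507).

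No GTPase, transcription factor or peptide transporter passed between the days by limma, while at an unadjusted p under 0.05 3 GTPases, 4 transcription factors and 1 peptide transporters were lower, and 1 transcription factor, Irf8, was higher. Mx1 had a larger change than 8 of the 9 that passed, −1.25, with a larger error (SE 0.24, adjusted p = 0.0614). Class medians were −0.61 for effectors, −0.72 for GTPases, −0.62 for sensors, −0.57 for regulators, −0.28 for transcription factors and −0.11 for peptide transporters. The differences between classes were not tested. The 9 calls also depended on which arrays were fitted. With the 4 wound arrays alone 0 members passed, and calls were lost when single arrays were left out. Leaving out the intact arrays, 1 or both, leaves the difference between the days as it is and takes away degrees of freedom. Ifi214 was the single member to pass without either of the day 1 arrays (adjusted p = 0.0427 and 0.0354), and 4 (Rsad2, Oasl1, Cmpk2 and Ifi214) passed without day 4 wound replicate 2.

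**Figure D3:**
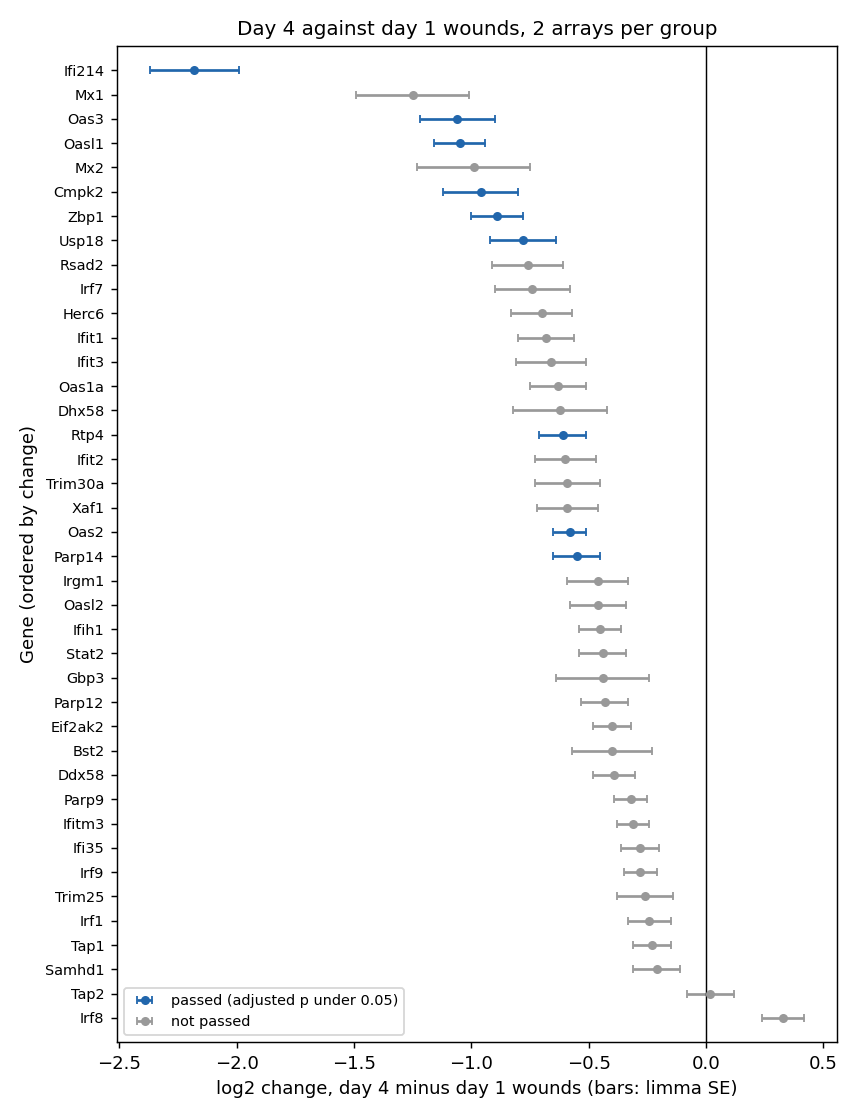
Log2 change from day 1 to day 4 wounds for each member, ordered by size, with limma SEs as bars and the 9 members that passed in blue. Ifi214 stands at −2.18, apart from the next member, Mx1, at −1.25, and Irf8 at 0.33 is the farthest to the right.

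The members were also described by whether ISRE letters stood in the promoter window, with no test. The 15 with a match had median log2 changes of 2.18 on day 1 and 1.55 on day 4, and the 15 without had 2.08 and 1.65. Between the days the medians were −0.46 and −0.43. Ifi214, which fell most between the days, and Bst2, the effector with the smallest day 1 rise, both belong to the group with a match, as their sequences above show. Irf1 and Irf8, without ISRE letters in the window, had day 1 changes of 1.53 and 1.43.

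The rest of the interferon pathway was examined by role. Of 21 listed interferon genes 16 were measured, and Ifna1, Ifna6, Ifna7, Ifna15 and Ifnl3 were not. None of the 16 rose on either day by limma (0 higher and 4 lower on day 1, 0 higher and 1 lower on day 4). At an unadjusted p under 0.05, 1 (Ifnk) was higher on day 1 and 0 on day 4. Their mean log2 level was 5.99 and 5.83 on the intact arrays, 5.75 and 5.73 on day 1, and 5.80 and 5.69 on day 4. The 4 that fell on day 1 were Ifnz by 0.75 (adjusted p = 0.00336), Ifna14 by 0.35 (0.0216), Ifnl2 by 0.30 (0.0393) and Ifna2 by 0.51 (0.0475), and Ifna12, named for its call after the values were seen, was lower on day 4 with a log2 change of −0.42 (0.0201). The main inducers were picked out for their role after the values were seen. Ifnb1, the type I interferon of many cell types, had 4.97 and 4.59 in intact skin, 4.80 and 4.53 on day 1, and 4.61 and 4.65 on day 4. Ifng, the product of T cells and natural killer cells, had 6.42 and 6.11, then 6.34 and 6.03, then 6.16 and 6.17. Ifnk, the keratinocyte interferon, had 4.68 and 4.51, then 4.86 and 5.43, then 4.51 and 4.52 (day 1 change 0.55, adjusted p = 0.0636). The values of Ifnb1 and, on all arrays but 1, of Ifnk lay under the lower quartile, where a low level cannot be told apart from background. Those of Ifna4, Ifna11 and Ifna13 lay under it on every array, so the lack of a rise says little for these genes.

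Of 6 interferon receptor genes 5 rose on day 1 and on day 4, against the background shares given above. Ifnar2 and Ifnar1, the chains of the type I receptor, changed by 1.56 and 0.82 on day 1 and 1.32 and 0.50 on day 4. Ifngr1, the ligand-binding chain for interferon gamma, changed by 1.25 and 1.06, and Il10rb, shared with the type III receptor, by 1.17 and 1.06. Ifnlr1, the specific type III chain, was the one that did not pass on either day, at 0.16 and −0.15. Of 10 kinases and signal transducers 5 rose on day 1, with Stat3 at 1.23, Jak2 at 1.17, Irf2 at 1.07 and Jak1 at 0.93, and 6 rose on day 4.

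Of 14 sensor adaptors and kinases 11 rose on each day and none fell by limma (0 on day 1 and 1 on day 4 at an unadjusted p under 0.05). Tlr8 and Tlr7, endosomal receptors for single-stranded RNA, rose most, by 2.68 and 2.62 on day 1 and 2.51 and 2.50 on day 4. The DNA-pathway adaptor Sting1 rose by 2.02 and 1.41, and the adaptor Myd88 by 1.60 and 0.83. Mavs, the adaptor of RIG-I and MDA5, was looked up after the other values were seen and was at 0.03 on day 1 and 0.18 on day 4 (adjusted p = 0.793 and 0.127). Of 11 feedback inhibitors 7 rose and 1 fell on day 1, and 5 rose and 1 fell on day 4. Socs3 rose by 2.75 and 1.38, Tnfaip3 by 1.90 and 1.22, the DNA exonuclease Trex1 by 1.21 and 0.41, and Nlrc5, also the activator of MHC class I genes, by 1.02 and 0.72. Socs3, Trex1 and Tnfaip3 fell between the days, by 1.37, 0.80 and 0.68 (adjusted p = 0.0128, 0.0265 and 0.0228), as did 1.14% of all genes.

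Of 49 further interferon-stimulated genes 45 rose on day 1 and 47 on day 4, with medians of 1.49 and 1.15, and none fell by limma (0 at an unadjusted p under 0.05 on each day). Ifi209 and Ifi205, of the same Ifi200 family as Ifi214, rose by 4.82 and 2.41 on day 1 and by 3.20 and 1.47 on day 4. The nuclear body gene Sp100 rose by 2.50 and 2.01, and Dtx3l, the ligase that partners Parp9, by 1.91 and 1.36. Between the days 6 of the 49 fell and 1 rose, against 1.14% and 1.09% of all genes. Ifi209 and Ifi205 fell by 1.62 and 0.94 (adjusted p = 0.0115 and 0.0107). Ifi203, the remaining Ifi200 gene measured among these 49, had a change of −0.07 (adjusted p = 0.787).

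**Figure D4:**
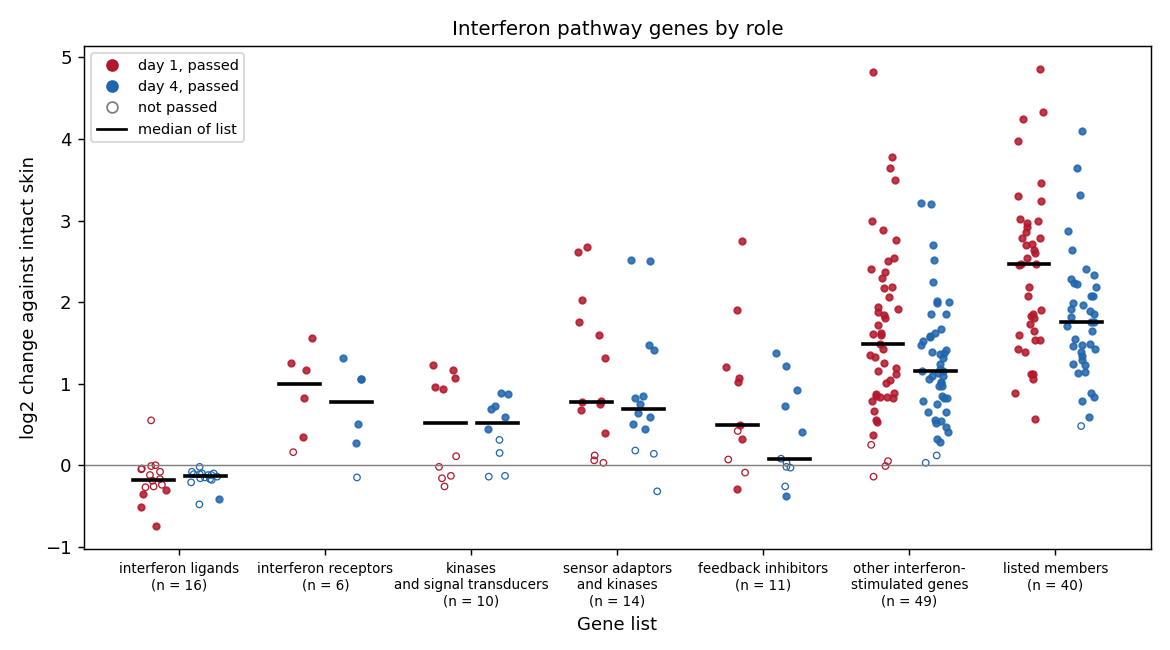
Log2 change against intact skin on day 1 (red) and day 4 (blue) for the genes of each role, with filled points for genes that passed, open points for those that did not, and black lines for list medians. The interferon genes lie around 0 (medians −0.18 and −0.13), and the listed members lie highest (2.47 and 1.75). Members and lists were chosen with earlier results of these data known, so this order is not independent of the choice.

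Markers of several cell types moved in the same biopsies, and their part in the members' changes was not tested. Over all genes 14.7% rose and 14.6% fell on day 1, and 14.8% rose and 12.1% fell on day 4. Of 14 neutrophil markers 11 rose and 1 fell on day 1, and 10 rose and 1 fell on day 4, with a mean log2 level of 6.25 and 6.35 in intact skin, 9.44 and 9.79 on day 1, and 8.54 and 8.68 on day 4. Of 16 monocyte and macrophage markers 14 rose on day 1 and 15 on day 4, with mean levels of 7.97 and 8.41, then 10.03 and 10.27, then 10.18 and 10.26. Between the days 2 of these 16 markers rose (C1qa by 0.88 and C1qc by 0.57, adjusted p = 0.0305 and 0.0480) and 1 fell (Cd14 by 1.07, adjusted p = 0.0389). Of 13 dendritic and Langerhans cell markers 8 rose and 1 fell on day 1, and 9 rose and 1 fell on day 4, and their mean was 7.11 and 7.06, then 7.56 and 7.63, then 7.71 and 7.90. These means were highest on day 4. Plasmacytoid dendritic cells are a known source of type I interferon. Of 8 genes listed as their markers 3 rose and 1 fell on day 1, and 2 rose and 1 fell on day 4. The defining lectin Siglech stood at 6.40 and 6.15, then 6.59 and 6.79, then 6.66 and 6.75. The mean of the 8 was higher, at 7.90 and 7.81, then 8.09 and 8.13, then 7.91 and 8.07. Whether their signal in whole skin comes from these cells was not tested. Of 9 natural killer cell markers 6 rose on each day, and of 9 T cell markers 3. Of 10 endothelial markers 7 rose on day 1 and 9 on day 4, and of 8 fibroblast markers 5 and 6. Among 7 B cell markers 0 rose and 1 fell on day 1, and 1 rose and 1 fell on day 4. Basal keratinocyte markers rose for 4 of 7 on each day, with day 1 changes from −0.27 to 1.10. Among 4 markers of differentiated epidermis 2 rose and 1 fell on each day, with day 1 changes from −1.34 to 0.51.

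The 2 day 1 arrays differed mostly in one direction over the members. On replicate 1 35 of the 40 were higher than on replicate 2, while this count was 18 in intact skin and 23 on day 4. The same count was not taken over all genes, so a difference particular to the members cannot be told apart from one of the whole array. The mean of the 9 natural killer cell markers was also higher on day 1 replicate 1 (6.51 against 6.18). The granzyme gene Gzmb, 1 of these markers and picked out with no rule set beforehand, stood at 8.91 on that array against 7.40. The mean without Gzmb was not taken. The mean of neutrophil markers was lower on that array (9.44 against 9.79).

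Markers of the labelled tissue were bright on every array. The basal keratin Krt5 lay between 12.60 and 12.71 and the collagen gene Col1a1 between 11.44 and 12.27. Krt5 does not stand for the whole epidermis, since other epidermal markers changed, as given above. The arrays' medians were 6.89 to 6.93, and replicates correlated over all genes, which are not independent, with r = 0.9967 in intact skin, 0.9891 on day 1 and 0.9861 on day 4. The share of higher among called genes depended on scaling. On day 4 2958 genes were higher and 2413 lower than in intact skin, and median centring gave 2574 and 3345. Between the days 217 were higher and 227 lower on day 4, and cyclic loess gave 195 and 310. No scaling tried turned the direction of a member against intact skin.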

How the data were processed

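The authors deposited log2 intensities for each probe set with 2 decimals (RMA, per the submitters' processing notes; its version: not given in the sources used here). RMA corrects background, brings arrays to a common distribution and summarises probes. The labels give RNA integrity numbers of 7.7 to 9.1. The table held 35556 probe sets. The annotation gave a single symbol for 21789 and several symbols for 1621, which were not used, and it did not list 12146. The tests used R 4.3.3 and limma 3.58.1, fitting group means to the 6 arrays with lmFit and eBayes (3 residual and 3.4 prior degrees of freedom), two-sided, with Benjamini-Hochberg adjustment across 19938 genes. The script was tested on simulated data. The number of arrays limits the precision. Members, lists and classes were chosen with earlier results of these data known. Of the other pathway genes 106 of 128 and of the cell type markers 105 of 115 were measured. Values on every array are given for up to 4 members of each class with the largest day 1 change and up to 4 that passed between the days, and other pathway genes are the up to 4 with the smallest day 1 p in each list, with exceptions named as such. Alternatives were quantile normalization, cyclic loess, median centring, a trend or robust estimate in the prior, the arrays of the compared groups alone, removal of the dimmest 30% of genes, the mean of a gene's probe sets, the replicate number as a block, and leaving out each array. Promoter sequences are RefSeq's (GRCm38.p6), matched by symbol, and gene order was read from the RefSeq table of that assembly.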

Additional observations from a re-analysis of the deposited data

How the results depend on the processing

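Every member kept its direction against intact skin on both days under all 15 alternatives, and the counts of members that rose were 39 to 40 on day 1 and 39 on day 4 when single arrays were left out. The calls between the days were less stable. Against 9 members that fell, 0 fell with the arrays of the 2 wound groups alone, and 0 to 4 when single arrays were left out, of which at most 3 were among the 9. Leaving out an intact array leaves the difference between the wound days as it is and takes away degrees of freedom. With quantile normalization 6 of the 9 passed. With the replicate block 14 members fell, among them 7 of the 9, Mx1 and Mx2, while Usp18 and Parp14 were lost (adjusted p = 0.0607 and 0.0568). The labels do not say whether the replicate numbers pair the samples. Deviations from the group means correlated at 0.685 between day 1 and day 4 wounds, so same-numbered wound arrays deviated alike over all genes. What they share is not stated, and the main fit took no account of it. Between intact skin and the wounds the correlations were 0.0139 and 0.0227. The block changed no call of a member against intact skin. Tap2 changed sign between the days, at −0.02 with cyclic loess and −0.02 with median centring, and lay between −0.01 and 0.05 when single arrays were left out. Over all genes the count lower on day 4 than on day 1, 227, was 348 with the replicate block, 9 with the 2 wound groups alone and 5 to 117 when single arrays were left out. The count higher, 217, was 8 with the 2 groups alone and 4 to 67 with single arrays left out. Against intact skin, single arrays left out gave 1773 to 2901 higher and 1376 to 2772 lower genes on day 1, and 1393 to 2760 and 853 to 2147 on day 4. The 3 members that were dim in intact skin have approximate folds.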
